A study of Mus musculus with 12 samples.

Results

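The gasdermin family of the mouse was followed across epidermal RNA-seq libraries through 8 genes, Gsdma, Gsdma2, Gsdma3, Gsdmc, Gsdmc2, Gsdmc3, Gsdmc4 and Gsdmd. They were taken by gene symbol from 19392 genes with values at postnatal day 36 (P36) and 17750 at 6 months. Dorsal epidermis had been split from the dermis by heat, its RNA depleted of rRNA, and 50-base single-end reads sequenced. All 12 libraries came from C57BL/6 mice that carried Vdr fl/fl and Med1 fl/fl alleles, the control libraries with the genotype K14 Cre-/- and those labelled DKO (double knockout of the vitamin D receptor and its coactivator Med1) with K14 Cre+/-. The 4 groups, control at P36, DKO at P36, control at 6 months and DKO at 6 months, held 3 libraries each. K14-driven Cre acts in keratinocytes of the basal layer and their descendants, so other cells of the skin keep both alleles. The labels do not say whether replicates were separate animals, and p-values therefore measure the spread between these samples, which may be technical. The 8 genes were chosen with their values in these libraries in view, so their levels and differences are given here as a description, and the one count of their calls supports nothing.

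Gasdermins are cytosolic proteins whose N-terminal domain, once freed by a protease from the C-terminal domain that holds it inactive, inserts into membranes and forms pores. The pores let out mature interleukin-1 family cytokines and can end in lytic cell death, known as pyroptosis. Gsdmd is cut by inflammatory caspases downstream of inflammasomes, and Gsdmc has been reported to be cut by caspase-8. The Gsdma genes are expressed in skin, and dominant mutations of mouse Gsdma3 cause hair loss with defects of the hair follicle and sebaceous gland.

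The mouse genes form 2 tandem clusters, one of Gsdma copies on chromosome 11 and one of Gsdmc copies on chromosome 15, while Gsdmd stands alone elsewhere on chromosome 15. Near-identical copies matter for values made from 50-base reads, since a read from a shared stretch can be credited to either copy. The first 50 coding bases of each copy, taken from GENCODE M21 transcripts (GRCm38), are therefore shown 5′ to 3′ on the coding strand (plus for the Gsdma genes, minus for the Gsdmc genes), with capitals at the bases that differ from the first gene of the cluster.
Gsdma: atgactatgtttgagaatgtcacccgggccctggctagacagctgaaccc
Gsdma2: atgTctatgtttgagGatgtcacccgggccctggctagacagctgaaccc
Gsdma3: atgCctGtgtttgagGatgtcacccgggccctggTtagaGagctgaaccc
Gsdmc: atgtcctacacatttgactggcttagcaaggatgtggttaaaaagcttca
Gsdmc2: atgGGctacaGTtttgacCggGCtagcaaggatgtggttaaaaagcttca
Gsdmc3: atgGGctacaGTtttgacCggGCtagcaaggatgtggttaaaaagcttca
Gsdmc4: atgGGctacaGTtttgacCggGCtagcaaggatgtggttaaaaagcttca
Over this stretch Gsdma2 differed from Gsdma at 2 bases and Gsdma3 at 5, whereas Gsdmc2, Gsdmc3 and Gsdmc4 were identical to each other and differed from Gsdmc at 7.

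Over the whole coding sequence, Gsdmc was 87% to 87.5% identical to Gsdmc2, Gsdmc3 and Gsdmc4, and Gsdmc2 was 97.1% identical to Gsdmc3. The Gsdma genes were 89% to 90.9% identical to each other, and genes of different subfamilies 55.8% to 59.9%. Of all 50-base words in its transcripts, Gsdmc2 shared 51.3% with other members, Gsdmc3 46% and Gsdmc4 39%. The shares were 16.1% for Gsdmc, 5.71% to 9.82% for the Gsdma genes and 0% for Gsdmd. Values of Gsdmc2, Gsdmc3 and Gsdmc4 are uncertain for that reason, and those of Gsdmd carry no such doubt within the family.

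**Figure D1:**
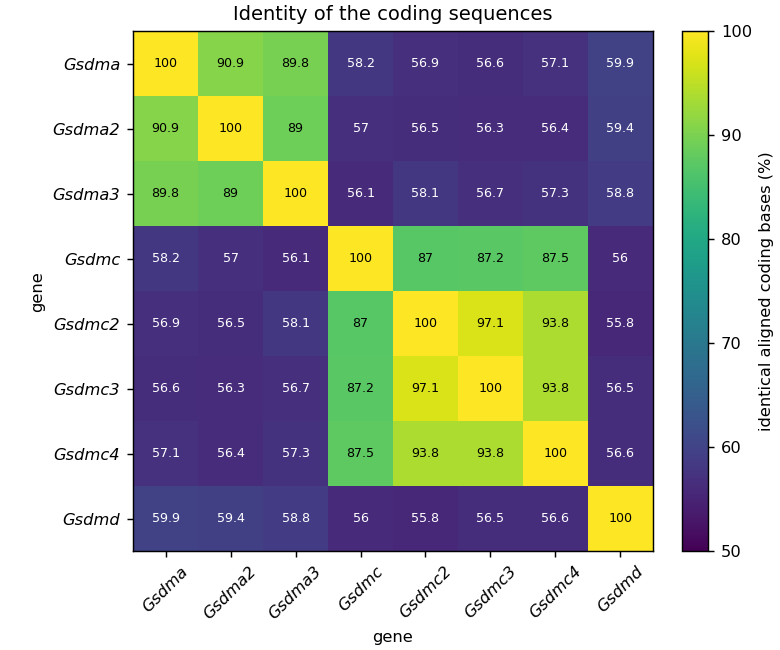
Percent of identical aligned coding bases for each pair of the 8 gasdermin genes, as a coloured and numbered grid. Gsdmc2, Gsdmc3 and Gsdmc4 form the block of closest copies (93.8% to 97.1%), and pairs from different subfamilies lie between 55.8% and 59.9%.

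All values are FPKM (fragments scaled by transcript length and by the mapped reads of the library), a level per length, so genes can be set beside each other. The 2 ages came as separate tables, and FPKM is scaled within each library, so levels compared between ages rest on that scaling alone. FPKM summed to 446617 to 554382 per library, and 12056 to 12760 genes reached 1 FPKM. The number of reads behind a value is unknown, so no counting interval can be given. In bulk tissue, fewer cells of a type and less RNA per cell cannot be told apart. The label check was mixed. Med1 was 13.8 ± 0.504 FPKM in control and 9.11 ± 1.11 FPKM (SD, n = 3) in the libraries labelled DKO at P36, and was called lower (log2 difference −0.55, adjusted p = 0.0083, limma). At 6 months Med1 was 14.2 ± 2.21 and 11.6 ± 0.256 FPKM (adjusted p = 0.13). Vdr was 68 ± 4.16 and 83.5 ± 6.06 FPKM at P36 and 40.5 ± 11.6 and 48.1 ± 5.49 FPKM at 6 months, so the DKO label came with no lower Vdr level. Whole-gene values do not show whether an exon was removed.

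Gsdmc had the widest gap between genotypes in the family. At P36 it was 0.8, 0.18 and 0.42 FPKM in the control libraries and 27.9, 32.74 and 20.99 FPKM in the libraries labelled DKO. At 6 months it was 0.63, 0.22 and 0.32 FPKM in control and 61.25, 75.15 and 28.64 FPKM in the libraries labelled DKO. Every control library was below 1 FPKM at both ages, and every library labelled DKO was at 20.99 FPKM or more. The means were 0.467 ± 0.313 and 27.2 ± 5.91 FPKM at P36, a ratio of 58.3, and 0.39 ± 0.214 and 55 ± 23.9 FPKM at 6 months, a ratio of 141. On the log2(FPKM + 1) scale, which understates changes of low genes, the difference was 4.27 (SE 0.20) at P36 and 5.24 (SE 0.33) at 6 months. With a pseudocount of 0.1 in place of 1 the differences were 5.73 and 6.79, and the authors' deposited table gives log2 fold changes of 5.86 and 7.17. Ordered by the log2(FPKM + 1) difference, Gsdmc ranked 9 from the top of 12660 genes at P36 and 5 from the top of 12594 at 6 months. Gsdmc passed the filter of 1 FPKM in 3 libraries only through the libraries labelled DKO, so it had to differ once tested. Its spread at 6 months came largely from DKO replicate 3, at 28.64 FPKM.

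The other Gsdmc copies stayed near the bottom of the scale. Gsdmc2 was 0.13, 0.06 and 0.06 FPKM in control and 0.14, 0.31 and 0.03 FPKM in the libraries labelled DKO at P36, which overlapped. At 6 months Gsdmc2 was 0.24, 0.58 and 0.04 FPKM in control and 1.9, 1.71 and 0.5 FPKM in the libraries labelled DKO. Replicates 1 and 2 labelled DKO were above all controls and replicate 3 was not. Gsdmc2 shares 12% of the 50-base words of Gsdmc, and the libraries with the highest Gsdmc2 were also those with the highest Gsdmc. The part of shared reads in the Gsdmc2 values was not tested. Gsdmc3 was listed at 0 in all 6 libraries at P36 and did not exceed 0.12 FPKM at 6 months. Gsdmc4 was listed at 0 at P36 apart from 0.01 FPKM in DKO replicate 1, and is not analysed here at 6 months.

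Gsdma was the most abundant gasdermin in every group, and the order of its groups turned over with age. At P36 it was 153.18, 145.06 and 159.35 FPKM in control and 119.04, 130.83 and 128.83 FPKM in the libraries labelled DKO. All libraries labelled DKO were below all controls, with means of 126 ± 6.31 and 153 ± 7.17 FPKM and a log2 difference of −0.27 (SE 0.09), or −0.41 under median-ratio scaling. At 6 months it was 35.9, 53.18 and 49.24 FPKM in control and 185.19, 164.5 and 129.8 FPKM in the libraries labelled DKO. All libraries labelled DKO were then above all controls, with means of 160 ± 28 and 46.1 ± 9.06 FPKM, a ratio of 3.47 and a log2 difference of 1.78 (SE 0.19). Within the controls, Gsdma was lower at 6 months than at P36 by a log2 difference of −1.72 (SE 0.15). Ordered by level, control at 6 months was lowest, followed by DKO at P36, control at P36 and DKO at 6 months, and DKO at 6 months, from 129.8 to 185.19 FPKM, overlapped both P36 groups.

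**Figure D2:**
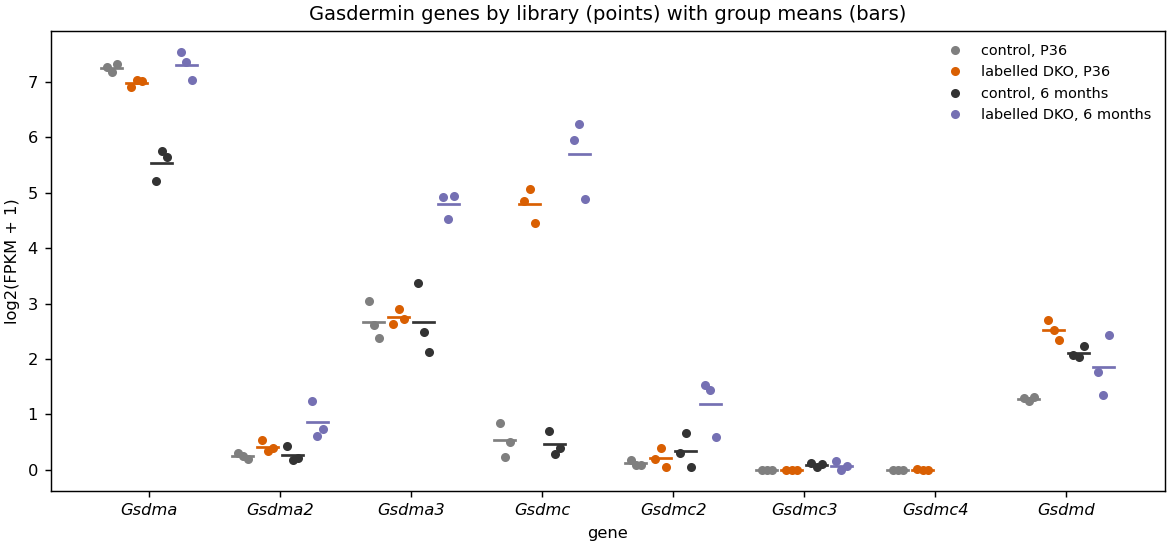
Level of each gasdermin gene as log2(FPKM + 1) in the 12 libraries, coloured by the 4 groups, with points for libraries and short bars for group means on that scale (Gsdmc4 at P36 only). Gsdmc is at 0.8 FPKM or less in all 6 control libraries and at 20.99 FPKM or more in all 6 labelled DKO, and the Gsdma groups stand in opposite order at the 2 ages.

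The genotype groups of Gsdma3 overlapped at P36 and were apart at 6 months. At P36 it was 7.28, 5.1 and 4.18 FPKM in control and 5.23, 6.44 and 5.6 FPKM in the libraries labelled DKO, and the groups overlapped. The means were 5.52 ± 1.59 and 5.76 ± 0.62 FPKM, with a log2 difference of 0.08 (SE 0.18) that was −0.04 under median-ratio scaling, −0.08 without control replicate 3 and 0.26 without control replicate 1. At 6 months Gsdma3 was 9.32, 4.63 and 3.36 FPKM in control and 29.53, 21.98 and 29.95 FPKM in the libraries labelled DKO, which lay above every control. The means were 5.77 ± 3.14 and 27.2 ± 4.49 FPKM, a ratio of 4.71 and a log2 difference of 2.14 (SE 0.31). Control levels hardly moved with age (log2 difference −0.02, SE 0.27), unlike those of Gsdma. In order of level, control at P36, DKO at P36 and control at 6 months overlapped each other, and only DKO at 6 months stood clear of them.

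Gsdma2 was the scarce copy of its cluster. It was 0.23, 0.19 and 0.15 FPKM in control and 0.45, 0.26 and 0.31 FPKM in the libraries labelled DKO at P36. At 6 months it was 0.34, 0.13 and 0.16 FPKM in control and 1.36, 0.52 and 0.66 FPKM in the libraries labelled DKO. The libraries labelled DKO were above the controls at both ages, with ratios of means of 1.79 and 4.03, at levels too low to pass the filter.

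Gsdmd showed the reverse age pattern to Gsdma3, with separate groups at P36 and overlapping ones at 6 months. At P36 it was 1.46, 1.36 and 1.49 FPKM in control and 5.5, 4.77 and 4.05 FPKM in the libraries labelled DKO. Every library labelled DKO was above every control, with means of 4.77 ± 0.725 and 1.44 ± 0.0681 FPKM, a ratio of 3.32 and a log2 difference of 1.24 (SE 0.13). At 6 months it was 3.23, 3.1 and 3.7 FPKM in control and 2.4, 1.55 and 4.38 FPKM in the libraries labelled DKO. DKO replicate 3 was the highest of these 6 libraries and replicates 1 and 2 the lowest, so the difference of −0.27 (SE 0.26) was within the spread, and it was −0.56 without replicate 3 and −0.02 without replicate 2. Controls were higher at 6 months than at P36 by a log2 difference of 0.83 (SE 0.22). In order of mean level, control at P36 was lowest and DKO at P36 highest, and neither overlapped control at 6 months. DKO at 6 months, from 1.55 to 4.38 FPKM, overlapped control at 6 months and DKO at P36.

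At P36, 4 of the 8 genes passed the filter and 2 were called higher (Gsdmc and Gsdmd) at an adjusted p under 0.05, where 23.3% of all genes tested were called. At 6 months the same 4 passed and 3 were called higher (Gsdma, Gsdma3 and Gsdmc), where 41.3% of all genes were called. Groups did not overlap for 3 of the 4 at each age, against 39.6% of genes at P36 (30% with the libraries labelled DKO above and 9.63% below) and 55.7% at 6 months (31.8% above and 24% below). Nothing is read from these counts, since the genes were chosen on the same libraries and Gsdmc passed the filter only through those labelled DKO. The genotype difference at 6 months minus that at P36 was 2.05 (SE 0.21) for Gsdma, 2.07 (SE 0.39) for Gsdma3, 0.97 (SE 0.43) for Gsdmc and −1.51 (SE 0.31) for Gsdmd.

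Summed over the 8 genes, gasdermin FPKM overlapped between genotypes at P36 and did not at 6 months. The sums were 160 ± 7.28 FPKM in control and 164 ± 9.45 FPKM in the libraries labelled DKO at P36, which overlapped. They were 56.2 ± 6.09 and 247 ± 46.7 FPKM at 6 months, a ratio of 4.4. The makeup differed at both ages. Gsdma was on average 95.2% of the sum in control and 76.8% in the libraries labelled DKO at P36, and 81.6% and 64.9% at 6 months. Gsdmc was 0.288% and 16.5% at P36 and 0.728% and 21.6% at 6 months. Gsdmd was 0.897% and 2.91% at P36 and 6% and 1.23% at 6 months. In the 6-month libraries labelled DKO, the Gsdmc share ran from 14.8% to 28.3% and that of Gsdma from 62% to 66.9%.

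**Figure D3:**
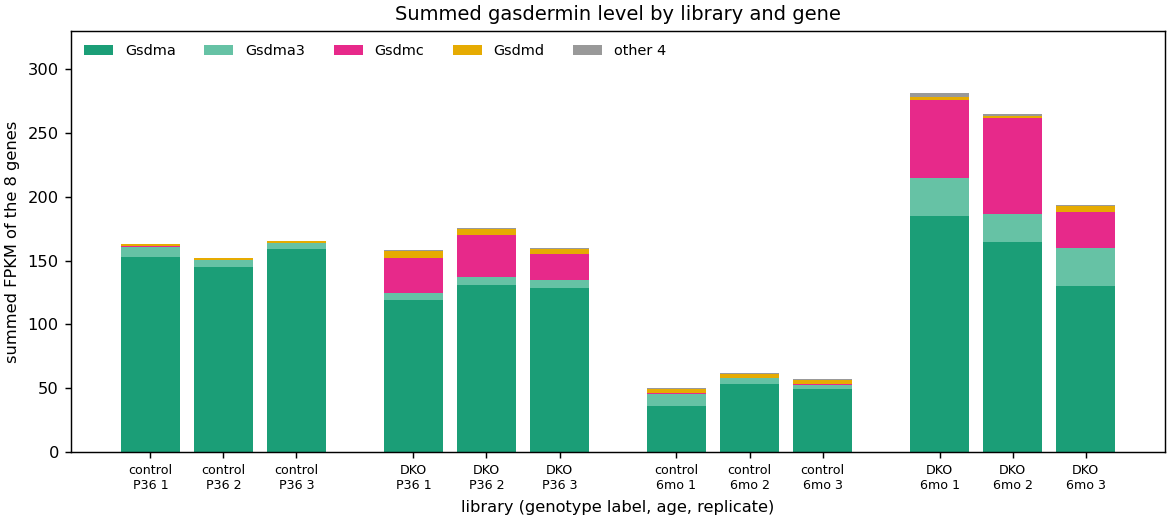
Gasdermin FPKM of each library, stacked by gene (the 4 scarcest genes joined), for the 12 libraries in their 4 groups, with the axis starting at 0. Bars of the P36 groups have similar heights (means of 160 and 164 FPKM), with a Gsdmc part visible in the libraries labelled DKO only, and the 6-month libraries labelled DKO (mean 247 FPKM) are taller than their controls (mean 56.2 FPKM).

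Across the 12 libraries the members did not follow one pattern. Pearson's r of log2(FPKM + 1) was 0.668 for Gsdma3 with Gsdmc, 0.534 for Gsdma with Gsdmc, 0.369 for Gsdma with Gsdma3 and −0.353 for Gsdmd with Gsdma. Of 13279 other genes searched, Gsdma was most like Ttc22 (r = 0.978), Gde1 (0.970) and Fabp5, a fatty acid-binding protein (0.968). Fabp5 was 1325 and 1167 FPKM in control and DKO at P36 and 267 and 1186 FPKM at 6 months, the same low control level at 6 months as in Gsdma. Gsdmc was most like Wfdc12, a whey acidic protein domain gene (0.990), 2610528A11Rik (0.984) and Rbp2, a retinol-binding protein (0.979). Rbp2 was 12.3 and 63.8 FPKM at P36 and 9.91 and 114 FPKM at 6 months. Gsdma3 was most like Nvl (0.970), Il23a (0.958) and Cd8b1 (0.952), the latter 2 with group means from 0.15 to 3.91 FPKM. Gsdmd was most like Tifab (0.953), Myo1f (0.947) and the transcription factor Irf8 (0.947), which was 0.793 and 2.59 FPKM at P36 and 2.43 and 1.86 FPKM at 6 months. These correlations describe 12 libraries that fall into 4 groups and share depth and composition, and each is the highest of many searched.

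Other gasdermins were scarce. Gsdme, a pore former of the same family, was 0.39 to 0.58 FPKM in control and 0.76 to 0.92 FPKM in the libraries labelled DKO at P36, and 0.61 to 0.74 and 0.68 to 0.85 FPKM at 6 months. Pjvk, the gasdermin-related gene of hearing, did not exceed 0.11 FPKM. Neither passed the filter.

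The genes that act with gasdermins were tested over the whole table. Their lists, like the members, were chosen with earlier results of these data known, so counts of their calls are a description. Of 60 genes listed in 7 groups, 43 were tested at P36, of which 22 were called higher and 0 lower, where 18% of all genes were called higher and 5.32% lower. Their median log2 difference was 0.40, beside 0.09 for all genes. At 6 months 45 were tested, with 13 called higher and 4 lower, where 23.2% and 18.2% of all genes were so called, and a median of 0.22 beside 0.04. Casp4 and Tlr4 at P36 and Naip2 at 6 months passed the filter only through the libraries labelled DKO, and without them 20 of 41 were called higher at P36 and 12 of 44 at 6 months. Leaving out DKO replicate 2 at P36 gave 14 calls in place of 22. Of the calls over all genes, 77.1% were higher at P36 (58.9% under median-ratio scaling) and 56% at 6 months (36.1% when keratin and cornified envelope genes were left out of the totals). The all-gene median log2 difference was −0.03 and −0.12 under these scalings, in place of 0.09 and 0.04. In one fit of all 12 libraries, the genotype difference itself differed between ages for 15 of 46 genes, 14 of them with the lower value at 6 months, where 34.9% of all genes were called, 13.8% in the one direction and 21.1% in this one. Within the controls, 32 of the 46 were called between ages, 29 higher and 3 lower at 6 months, where 63.1% of all genes were called, 35.3% higher and 27.9% lower.

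**Figure D4:**
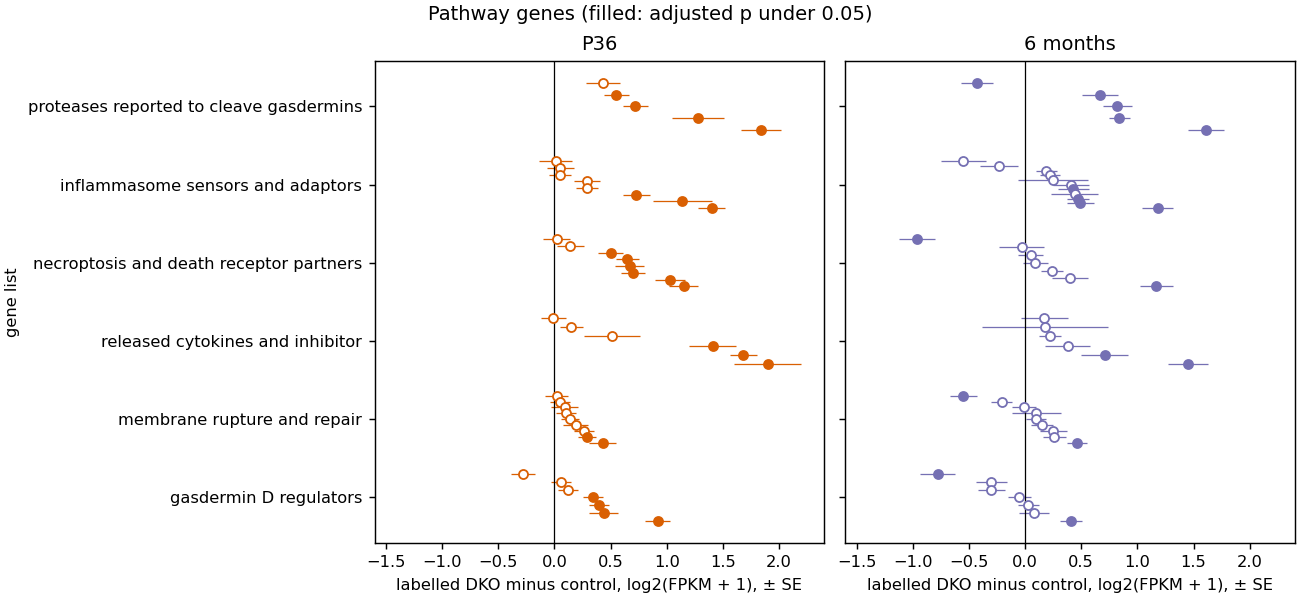
Log2 difference, libraries labelled DKO minus control, of each tested gene that acts with gasdermins, at P36 and at 6 months, by list, with error bars of 1 SE and filled points for calls at an adjusted p under 0.05. All 22 calls at P36 lie right of 0, and at 6 months 13 lie right and 4 left of it.

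Of the proteases reported to cut gasdermins, Casp1, Casp4 and Casp8 were called higher at both ages. Casp1, which cuts Gsdmd and pro-interleukin-1β, was 4.42, 3.7 and 8.04 FPKM in control and 15.51, 14.13 and 12.22 FPKM in the libraries labelled DKO at P36. At 6 months Casp1 was 16.47, 23.47 and 23.64 FPKM in control and 61.26, 75.12 and 61.74 FPKM in the libraries labelled DKO. Its log2 difference was 1.28 (SE 0.23, adjusted p = 0.00617, limma) and 1.61 (SE 0.16, adjusted p = 0.000652, limma), with all 3 libraries labelled DKO above all controls at each age. Casp8 rose by 0.72 (SE 0.11, adjusted p = 0.00348, limma) and 0.84 (SE 0.09, adjusted p = 0.000787, limma). Casp4, the mouse caspase-11 gene of the non-canonical inflammasome, rose by 1.84 (SE 0.18) and 0.82 (SE 0.13), and this difference was smaller at 6 months (−1.01, adjusted p = 0.00726, limma). At P36 Casp4 passed the filter only through the libraries labelled DKO, so nothing is read from its call at that age. The granzyme and neutrophil protease genes Gzma, Gzmb, Elane and Ctsg were below 1 FPKM in every library.

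Of the inflammasome sensors and adaptors, 3 of 8 were called higher at P36 and 4 of 11 at 6 months, and 0 lower. Of all genes tested, 18% were called higher at P36 and 23.2% at 6 months. Nlrp10, an NLR gene expressed in keratinocytes, rose by 1.40 (SE 0.12) at P36 and 0.49 (SE 0.12) at 6 months, where 1 of 14 alternative settings lost the call. Pycard, the adaptor ASC, rose by 0.73 (SE 0.12) at P36 and was 0.44 (SE 0.21) at 6 months. Aim2, a sensor of cytosolic DNA, rose by 1.18 (SE 0.14) at 6 months and was 0.29 (SE 0.12) at P36, a difference between ages of 0.89 (adjusted p = 0.00399, limma). Zbp1 was called higher at P36 (1.14, SE 0.26), and Nlrp1a (0.47, SE 0.10) and Naip2 (0.43, SE 0.14) at 6 months. The Naip2 call was lost in 4 of 9 alternative settings, and the Zbp1 and Nlrp1a calls in 1 of 14 each. Naip2 passed the filter only through the libraries labelled DKO, so nothing is read from its call.

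Of the cytokines that leave through gasdermin pores, Il18 was called higher at both ages, from 13.9 ± 6.06 to 50.7 ± 2.92 FPKM at P36 (log2 difference 1.90, SE 0.30) and from 94.3 ± 20.4 to 257 ± 36.2 FPKM at 6 months (1.45, SE 0.18). Il33 rose at P36 by 1.68 (SE 0.12) and was 0.17 (SE 0.21) at 6 months. Il1b rose at P36 by 1.41 (SE 0.21), a call lost in 1 of 13 alternative settings, and was 0.18 (SE 0.56) at 6 months. Il1a was called higher at 6 months (0.71, SE 0.21), lost in 6 of 14. Il1rn and Hmgb1, also in this list, were called at neither age. The list gave 3 calls higher of 6 at P36 and 2 of 6 at 6 months, and 0 lower. Among partners in necroptosis and death receptor signalling, 6 of 8 were called higher at P36, and 1 higher and 1 lower of 7 at 6 months. The shares over all genes were 18% higher at P36, and 23.2% higher and 18.2% lower at 6 months. Tlr4, 1 of the 6 at P36, passed the filter only through the libraries labelled DKO, so nothing is read from its call. Mlkl, the pore former of necroptosis, rose by 1.15 (SE 0.13) and 1.17 (SE 0.15). Ripk3, its kinase, rose by 1.03 (SE 0.13) at P36. Tnfrsf1a, the receptor of tumour necrosis factor, was called higher at P36 (0.50, SE 0.11) and lower at 6 months (−0.96, SE 0.16).

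Genes that control Gsdmd gave 4 calls higher of 7 at P36, and 1 higher and 1 lower of 7 at 6 months. The shares over all genes were 18% higher at P36, and 23.2% higher and 18.2% lower at 6 months. Irf1, an interferon-induced transcription factor, rose by 0.92 (SE 0.11) at P36 and was −0.30 (SE 0.14) at 6 months. Irf2, reported to drive Gsdmd transcription, was 0.44 (SE 0.13) at P36, a call lost in 9 of 14 alternative settings, and fell by 0.78 on the log2 scale (SE 0.16) at 6 months. Zdhhc9, a palmitoyltransferase, was called higher at P36 (0.40, SE 0.09), and Lamtor1, of the Ragulator complex, at 6 months (0.41, SE 0.10). Their calls were lost in 3 and 1 of 14 alternative settings, and that of Rraga, a Rag GTPase called higher at P36 (0.34, SE 0.09), in 9 of 14. Of 9 membrane rupture and repair genes, 2 were called higher at P36, Ninj1 (0.43, SE 0.12) and Chmp3 (0.29, SE 0.08), which lost their calls in 8 and 10 of 14 alternative settings. At 6 months Vps4b was called higher (0.46, SE 0.09) and Pdcd6ip lower (−0.55, SE 0.12).

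The genes beside the clusters were tested in the same fits, 3 on each side in the RefSeq order of GRCm38.p6. None of the tested neighbours of the Gsdma cluster, Ormdl3, Psmd3 and Med24, was called by limma at either age, and 0 had an unadjusted p under 0.05. Each was called in 1 of 14 alternative settings at one age, with adjusted p from 0.044 to 0.0473. Psmd3, next to the cluster, was 99.2 ± 5.68 and 99.4 ± 7.39 FPKM at P36 and 58.6 ± 3.92 and 47.9 ± 9.34 FPKM at 6 months. On the other side, Ormdl3 was 49.7 ± 4.21 and 57.9 ± 5.09 FPKM at P36 and 42.6 ± 7.98 and 36.9 ± 3.45 FPKM at 6 months. Beside the Gsdmc cluster, Asap1 fell by 0.66 on the log2 scale (SE 0.13) at 6 months, while Myc was 33.3 ± 4.06 and 38.1 ± 5.62 FPKM at P36 and 64.7 ± 37.8 and 46.7 ± 6.45 FPKM at 6 months. Beside Gsdmd, Mroh6 (0.89, SE 0.24) and Naprt (0.87, SE 0.16) were called higher at P36. The Mroh6 call was lost in 5 of 14 alternative settings. At 6 months neither was called, and the Naprt difference changed between ages by −1.13 (adjusted p = 0.00328, limma).

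Markers of several cell types moved between the same groups. The marker lists too were chosen with earlier results of these data known. Of all genes tested, 18% were called higher and 5.32% lower at P36, and 23.2% and 18.2% at 6 months. At P36, where Gsdmd was higher in the libraries labelled DKO, 7 of 9 macrophage, neutrophil and mast cell markers were called higher, their summed level being 64 to 133 FPKM in control and 304 to 437 FPKM in the libraries labelled DKO. At 6 months 3 were higher and 1, Csf1r, lower (−0.67), with sums of 95.4 to 155 and 311 to 717 FPKM. Without S100a8 and S100a9, left out after their values were seen, the sums of the other 7 were 40.8 to 54.4 and 222 to 318 FPKM at P36 and overlapped at 6 months (77.2 to 143 and 75.9 to 336 FPKM). Of 6 T cell and Langerhans cell markers, 5 were higher at P36 (151 to 212 and 435 to 517 FPKM) and 3 lower at 6 months (952 to 1294 and 510 to 689 FPKM). All 7 inner root sheath and hair shaft markers were lower at P36, where Gsdma was also lower in the libraries labelled DKO. Their sums were 22777 to 28183 and 9931 to 13405 FPKM at P36, and 2.49 to 14.5 and 1.89 to 23.5 FPKM at 6 months. Upper follicle markers gave 1 call higher of 6 at P36 (2222 to 3318 and 2855 to 3467 FPKM) and 4 of 6 at 6 months (970 to 1185 and 2524 to 3674 FPKM), where Gsdma and Gsdma3 were higher. Sebaceous gland markers gave 5 of 7 at P36 (395 to 431 and 674 to 894 FPKM) and 4 of 7 at 6 months (454 to 796 and 1186 to 1488 FPKM). All 6 skeletal muscle markers were higher at P36 (13.5 to 25.9 and 114 to 470 FPKM), and 0 of 5 was called at 6 months (9.17 to 53.8 and 10.8 to 122 FPKM). Of 6 suprabasal keratinocyte markers, 3 were higher and 1 lower at P36 (2876 to 3908 and 6832 to 9229 FPKM), and 2 higher and 3 lower at 6 months (15607 to 22677 and 11324 to 14679 FPKM). Of 6 basal keratinocyte markers, 3 were higher and 1 lower at P36 (3080 to 5061 and 4946 to 6524 FPKM), and 5 lower at 6 months (6044 to 7656 and 3762 to 4560 FPKM). Of 5 smooth muscle and endothelium markers, 3 were higher at P36 (43.7 to 58.4 and 126 to 135 FPKM) and 2 lower at 6 months (111 to 146 and 29.5 to 64.1 FPKM). Of 4 melanocyte markers, 3 were also lower at P36 (366 to 670 and 186 to 346 FPKM), and 1 at 6 months. Of 4 adipocyte markers tested, 3 were higher at P36, as were 2 of 6 dermal fibroblast markers. In both of these lists 0 was called at 6 months. The muscle marker Myh4 and the adipocyte marker Plin1 passed the P36 filter only through the libraries labelled DKO, so nothing is read from their calls. Flg of the suprabasal list and Trdc of the T cell and Langerhans cell list had no values under those symbols. No other listed marker was at 0 in all libraries. The part of any of these cell types in the gasdermin levels was not tested.

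**Figure D5:**
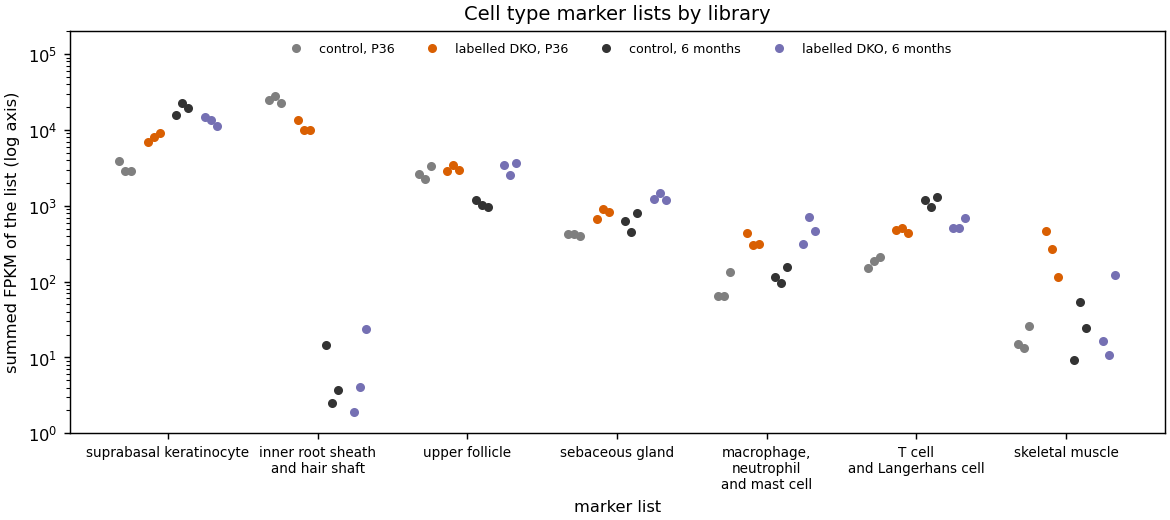
Summed FPKM of marker genes of part of the listed cell types in each of the 12 libraries on a log axis, by group. Inner root sheath and hair shaft markers sum to 9931 FPKM or more in each P36 library and to 23.5 FPKM or less in each 6-month library, and the sums of macrophage, neutrophil and mast cell markers of the libraries labelled DKO lie above those of control at both ages, at 6 months through S100a8 and S100a9.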

How the data were processed

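The authors deposited 1 table for each age with FPKM per gene and library, log2 fold changes and p-values. The submitters' processing notes name the aligner HISAT2 (2.1.0), the quantifier RSEM (1.2.8) and genome builds that are human (GRCh38, hg38) although the samples are mouse, so no coordinates are printed. Ages were taken from each table's name. Symbols for the deposited gene numbers came from a RefSeq table (GRCm38.p6), which matched 19343 of 19392 and 17712 of 17750.

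Differences were computed with limma 3.58.1 in R 4.3.3 (mean trend of the variance prior, tested on simulated data) on log2(FPKM + 1), for genes at 1 FPKM or more in at least 3 libraries of the fit, and called at a Benjamini-Hochberg adjusted p under 0.05. Each age was fitted on its 6 libraries, and the age effect in control and the difference between ages on all 12. Low values held no common step between libraries (at most 6.44% at 1 ratio within 1%), so reads could not be recovered. At most 0.412% of genes had identical values in 2 libraries, and no library was a copy of another.

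The members and gene lists were chosen with earlier results of these data known. The genes named were the 8 members, Vdr and Med1, up to 4 called genes of each list and age with the smallest adjusted p, 3 neighbours on each side, and the 3 genes with the highest Pearson's r to each member that passed the filter. Some of the named genes are not reported here. Alternatives changed the pseudocount, filter, scaling, replicate block and each library in turn.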

Additional observations from a re-analysis of the deposited data

Results flagged for a closer look

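The Gsdma groups moved in opposite directions at the 2 ages. All 3 libraries labelled DKO were below the controls at P36 (log2 difference −0.27) and all 3 above them at 6 months (1.78). The 2 differences were unlike in size, and that at P36 was not called. Of all genes tested, 39.6% had groups that did not overlap at P36 and 55.7% at 6 months. The Gsdma difference at P36 ranked 1274 from the lowest of 12660 genes, and that at 6 months 166 from the highest of 12594. The difference between these was not tested, because Gsdma was chosen on these values.

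For 14 of the named genes that act with gasdermins or lie beside them, the genotype difference at 6 months minus that at P36 passed the test over all genes in one limma fit of 12 libraries. It was −1.01 for Casp4, −0.91 for Nlrp10 and 0.89 for Aim2. Among death receptor partners it was −0.55 for Ripk1 (adjusted p = 0.0105), −0.63 for Ripk3 (adjusted p = 0.0344), −1.46 for Tnfrsf1a (adjusted p = 0.000452) and −0.65 for Myd88 (adjusted p = 0.00816). The value was −1.51 for the cytokine Il33 (adjusted p = 0.00121) and −0.69 for Pdcd6ip, which encodes the repair protein Alix. Of the regulators of Gsdmd it was −1.22 for Irf1, −1.22 for Irf2 and −0.70 for Zdhhc9. Of the neighbours of Gsdmd it was −0.88 for Mafa and −1.13 for Naprt. Mafa lay near the floor, at 0.71 to 1.23 FPKM in control and 0.18 FPKM in each library labelled DKO at 6 months. Its level was too low to be tested at 6 months alone. Aim2 was the exception in direction. Several marker lists had calls higher at P36 and lower at 6 months: T cell and Langerhans cell (5 of 6, then 3 of 6), basal keratinocyte (3 of 6, then 5 of 6), suprabasal keratinocyte (3 of 6, then 3 of 6), and smooth muscle and endothelium (3 of 5, then 2 of 5). Basal and suprabasal keratinocyte markers each also had 1 lower at P36, and suprabasal ones 2 higher at 6 months. Other lists went otherwise. Sebaceous gland (5 of 7, then 4 of 7) and upper follicle markers (1 of 6, then 4 of 6) were called higher at both ages. Macrophage, neutrophil and mast cell markers had 7 of 9 higher at P36, then 3 higher and 1 lower at 6 months. Skeletal muscle, adipocyte and dermal fibroblast markers had calls higher at P36 and 0 at 6 months. Hair shaft and melanocyte lists had calls lower at P36. Of all genes tested, 18% were called higher at P36 and 18.2% lower at 6 months. The part of these cell types in the differences was not tested.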

How the results depend on the processing

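Of 132 counts of calls under other settings, 129 stayed within 1.5 times the main count. Leaving out DKO replicate 2 at P36 gave 1662 genes called at P36, and leaving out replicate 3 gave 1697, in place of 2949; genes that act with gasdermins gave 14 in place of 22 without replicate 2. The cause was not tested beyond the smaller number of libraries. Over all libraries left out in turn, the calls ran from 1662 to 2660 at P36 (14 to 19 of the listed genes), 3682 to 4893 at 6 months (14 to 17), 3603 to 4843 for the difference between ages (14 to 17) and 7629 to 8482 for age in control (30 to 34). Gasdermin differences stayed between −0.41 and −0.23 (Gsdma) and 1.14 and 1.66 (Gsdmd) at P36, and 1.59 and 1.92 (Gsdma) and 1.87 and 2.49 (Gsdma3) at 6 months. Gsdmc ran from 4.12 to 5.73 at P36 and 5.12 to 6.79 at 6 months, and could not be fitted without any one library labelled DKO, since it then fell under the filter. Of single named genes, 797 values kept their side of the threshold, 59 lost the call, 9 gained it and 0 turned direction with a call.

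Replicate numbers did not pair the libraries: same-numbered residuals correlated at 0.13, −0.06 and −0.12 at P36 and −0.06, 0.03 and 0.18 at 6 months. With the replicate block, 2607 genes were called at P36 (20 of the listed genes), 4862 at 6 months (16), 4208 for the difference between ages (14) and 8178 for age in control (31). With median-ratio scaling 54.7% of the calls for the difference between ages were higher, and 28% with keratin and cornified envelope genes kept out of the totals, against 39.5%. Depth is unknown, and values of Gsdma2, Gsdmc2, Gsdmc3 and Gsdmc4 were too low to test.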
